A study of Homo sapiens with 12 samples.

Results

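Neurotrophins are secreted growth factors, and 7 genes of this system were followed across the 12 RNA sequencing libraries: the ligands BDNF, NTF3 and NTF4, the receptor tyrosine kinases NTRK2 (TrkB) and NTRK3 (TrkC), the p75 receptor NGFR, and the sorting receptor SORT1 (sortilin). They were picked by symbol among the 57773 gene identifiers of the count tables, and all 7 were found, each with 1 identifier. The libraries came from WI-38, a line of normal human lung fibroblasts that divides a limited number of times, kept between population doubling levels 15 and 25. Each of 4 groups had 3 libraries. Proliferating cells (siCtrl Prolif) received a non-targeting siRNA and spent 8 days in medium with the vehicle DMSO. Senescent cells were grown for 8 days with 50 µM etoposide, which traps topoisomerase II on broken DNA, and carried the non-targeting siRNA (siCtrl Sen), a pool of siRNAs to NTRK2 (siNTRK2 Sen) or a pool to BDNF (siBDNF Sen). All groups, the proliferating controls included, were transfected at 25 nM siRNA. Neither siRNA pool was used in proliferating cells, so an effect of silencing can be read in senescent cells only. The study describes its cell culture work as independent repeats in which all groups were handled side by side. The labels do not tie a library to one of those repeats, so the p-values measure the spread between these libraries, which may be technical.

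Neurotrophins are made as proneurotrophins and are cut to their mature form inside the cell by furin-like convertases or outside it by plasmin and matrix metalloproteinases. Mature BDNF and NTF4 (NT-4) bind TrkB, NTF3 (NT-3) binds TrkC, and bound Trk receptors signal through SHC adaptors, PLCγ, ERK and PI3 kinase. All proneurotrophins and mature neurotrophins bind p75, and sortilin joins p75 at the cell surface as the co-receptor for the uncut forms and also sorts proBDNF inside the cell. The system is best known for the survival of neurons, and fibroblasts are a classical non-neuronal source of its ligands.

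BDNF shares exons with BDNF-AS, a long noncoding RNA gene on the opposite strand, and the stretch where their exons part is shown because the 2 genes moved together in these libraries. It was read from GRCh37 at chr11:27679685-27679884 on the minus strand and covers bases 228 to 427 of the BDNF reading frame of 741 bases. Capitals mark the 100 bases that are also in a BDNF-AS exon.
BDNF: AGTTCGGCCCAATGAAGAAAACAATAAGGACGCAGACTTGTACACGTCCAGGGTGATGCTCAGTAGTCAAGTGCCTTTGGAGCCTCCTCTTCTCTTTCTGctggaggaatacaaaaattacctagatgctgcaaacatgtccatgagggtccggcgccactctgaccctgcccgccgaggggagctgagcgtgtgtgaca
In all, 988 exon bases lie in both genes, in 3 blocks. The block shown runs from 27679785 to 27680167 and takes in the first 327 bases of that reading frame. Over all annotated BDNF reading frames it holds 348 coding bases. The other blocks run from 27680718 to 27681205 and from 27681703 to 27681819. The counting rule for reads of overlapping genes is not given in the sources used here, so reads from these bases could have been given to either gene, to both or to none.

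RefSeq windows of 250 bases before a start site (GRCh38.p14, a build other than that of the counts) were found for 6 of the 7 members, 15 windows in all. They were searched on both strands for 5 motifs. The cyclic AMP response element was spelled TGACGTCA. The E-box was spelled CACGTG. The letters TGANTCA stood for an AP-1 site. The CAAT box was searched by its core CCAAT. The letters TATAAA stood for the TATA box. No matches of different motifs overlapped in the windows shown. Capitals mark matches. A BDNF window is shown because it holds the E-box found in none of the other 14 windows, and the first windows of NTF3 and SORT1 because these genes were lower together in senescent cells and after BDNF silencing.
BDNF, chr11:27720780-27721029, minus strand: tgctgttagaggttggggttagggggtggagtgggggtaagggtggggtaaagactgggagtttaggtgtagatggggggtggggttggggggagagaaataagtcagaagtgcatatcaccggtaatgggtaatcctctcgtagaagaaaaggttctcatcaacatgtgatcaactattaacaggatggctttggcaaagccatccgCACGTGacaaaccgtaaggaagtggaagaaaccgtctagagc
NTF3, chr12:5431858-5432107, plus strand: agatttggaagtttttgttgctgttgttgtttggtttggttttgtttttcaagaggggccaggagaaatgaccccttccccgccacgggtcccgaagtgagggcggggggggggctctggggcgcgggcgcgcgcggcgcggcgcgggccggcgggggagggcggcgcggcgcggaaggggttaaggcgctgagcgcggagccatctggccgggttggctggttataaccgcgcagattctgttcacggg
SORT1, chr1:109397919-109398168, minus strand: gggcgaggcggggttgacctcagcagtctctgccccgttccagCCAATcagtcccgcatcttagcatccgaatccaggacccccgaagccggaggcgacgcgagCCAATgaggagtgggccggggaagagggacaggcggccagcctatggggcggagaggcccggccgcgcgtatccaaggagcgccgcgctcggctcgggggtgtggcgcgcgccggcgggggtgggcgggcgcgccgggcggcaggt
The E-box of BDNF begins 42 bases before the start site, and an E-box is in 6.34% of all 35116 windows. The 2 CAAT boxes of SORT1 begin 207 and 146 bases before the start, and 32% of all windows hold one. No member window held the response element (1.65% of all windows), the AP-1 site (6.57%) or the TATA box (10.7%), which says only that those letters are absent there. The NTF3 and SORT1 windows shown held 28 and 32 CG pairs, against a median of 11 over all windows. The other windows of these genes held 9 and 2. An NTRK2 window held 31, and the windows of NTF4 and NTRK3 held 24 and 23.

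The totals ran from 31567912 to 72328151 counts per library, and 3 counts, taken as the floor of detection, stood for 0.0427 to 0.0916 normalized CPM (counts scaled to the library total as adjusted by edgeR's TMM method). That floor covers counting error only. The fibroblast label held: the 10 fibroblast markers summed to between 32690 and 45550 CPM in every library, led by FN1, COL1A1 and COL1A2, while 5 neuronal markers summed to between 8.93 and 15.7 CPM and 5 glial and Schwann cell markers to between 1.08 and 2.23. S100B and SOX10, which define Schwann cells, did not reach the count filter. The 5 epithelial markers summed to 66.7 to 71.4 CPM in siCtrl Prolif and 68.9 to 81.4 in siCtrl Sen. They summed to 66.4 to 70.5 in siNTRK2 Sen and 69.7 to 72.2 in siBDNF Sen. KRT8 and KRT18 led these sums, with means of 27.8 and 42.7 CPM. Of the 4 tested epithelial markers, 2 were called higher and 0 lower in siCtrl Sen than in siCtrl Prolif. Neuronal marker sums were 8.93 to 10.6 in siCtrl Prolif and 11.01 to 11.59 in siCtrl Sen, and immune marker sums 0.520 to 0.622 and 1.87 to 2.41, so both moved with senescence. The 4 endothelial markers in the tables summed to 75.2 to 78.0 in siCtrl Prolif, 34.4 to 36.2 in siCtrl Sen, 34.8 to 40.9 in siNTRK2 Sen and 24.6 to 25.7 in siBDNF Sen, through TEK, which was lower in siCtrl Sen than in siCtrl Prolif (log2 fold change -1.20, SE 0.0596) and lower again in siBDNF Sen than in siCtrl Sen (-0.53, SE 0.0619). VWF and KDR, the other tested endothelial markers, were called higher in siCtrl Sen. Of the 10 fibroblast markers, 2 were higher and 7 lower in siCtrl Sen than in siCtrl Prolif, 6 higher and 1 lower in siNTRK2 Sen than in siCtrl Sen, and 2 higher and 6 lower in siBDNF Sen than in siCtrl Sen. Among 4 genes known to rise in senescence, 2 were higher and 1, IL6, lower in siCtrl Sen than in siCtrl Prolif, and all 4 genes known to fall were lower. In siNTRK2 Sen the first 4 were all lower than in siCtrl Sen and the latter 4 all higher, with the proliferation genes MKI67 at 1.71 (SE 0.166) and TOP2A at 1.11 (SE 0.0721). In siBDNF Sen 1 of each was called, CCL2 lower (-0.50, SE 0.0801) and MKI67 higher (0.91, SE 0.177). The part of these markers in the results that follow was not tested. In bulk RNA, fewer cells with a transcript and less of it per cell cannot be told apart. ACTB, often used as a reference mRNA, was at 8109 to 8868 CPM in siCtrl Prolif but at 5370 to 6011 in siCtrl Sen and 4565 to 4998 in siBDNF Sen. Scaling to ACTB therefore raised the median log2 fold change of all 21518 tested genes to 0.57 for siCtrl Sen against siCtrl Prolif, to 0.10 for siNTRK2 Sen and 0.27 for siBDNF Sen against siCtrl Sen, and set that of siNTRK2 Sen against siBDNF Sen at -0.17.

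Per kilobase of exon, the members spanned more than 3 orders of magnitude. In siCtrl Sen, BDNF stood first at 20.98 ± 0.816 RPKM (SD, n = 3), followed by SORT1 at 9.22 ± 0.201 and NTF3 at 1.99 ± 0.116. NGFR, at 0.390 ± 0.0501, and NTF4, at 0.241 ± 0.0174, formed a middle class, and the Trk receptors were lowest, NTRK3 at 0.00953 ± 0.00258 and NTRK2 at 0.00559 ± 0.00204. The order of the 2 Trk receptors turned when the length of the canonical transcript was used in place of all exons (NTRK2 0.0214 and NTRK3 0.0128 RPKM), since the union of NTRK2 exons is 33162 bases long. Over all exons the ranges of their libraries overlapped. The order was the same in siNTRK2 Sen apart from NTF4, at 0.279 ± 0.0368, which came before NGFR at 0.262 ± 0.0616, a pair within its spread. In siBDNF Sen, SORT1 at 6.64 ± 0.155 came before BDNF at 6.09 ± 0.315 over all exons, but after it per canonical transcript (8.66 and 11.8 RPKM). In siCtrl Prolif, NTF4 followed NTF3 at 0.399 ± 0.114 and NGFR lay below it at 0.0230 ± 0.0252.

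**Figure D1:**
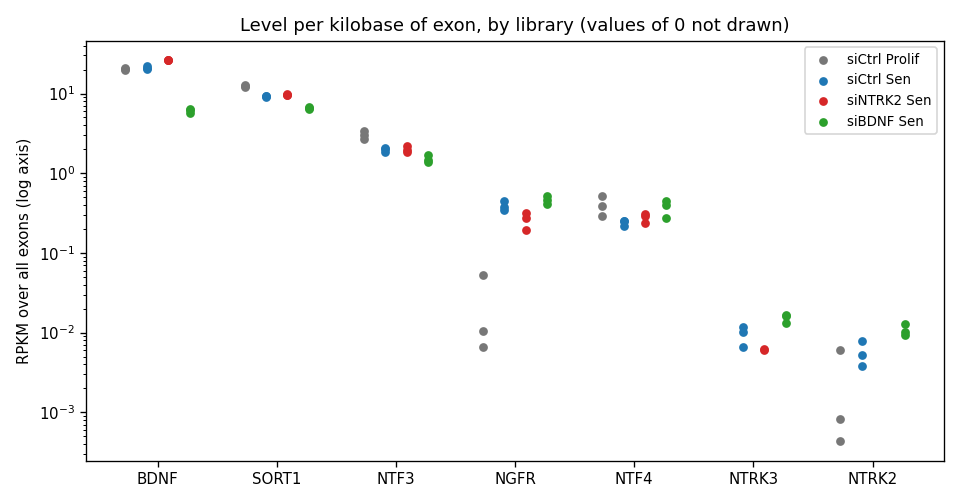
Level of each member (counts per kilobase of exon, scaled to library size as RPKM, log axis) against the gene, 1 point per library and 1 color per group. BDNF and SORT1 lie at the top in every group, NGFR in siCtrl Prolif lies below its level in the other groups, and the Trk receptors lie at the bottom, with libraries at 0 not drawn.

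Against this ladder of levels, the groups were compared in one edgeR quasi-likelihood fit of all 12 libraries, with p-values adjusted over all 21518 tested genes by the Benjamini-Hochberg method and a gene called at an adjusted p under 0.05. All 7 members passed the filter on low counts, which looked at all 4 groups. NTRK3, at 0 counts in siCtrl Prolif, and NTRK2, at 0 in siNTRK2 Sen, passed it through the other groups. Their p-values against the groups at 0 are therefore no separate support for a difference. NGFR, with 12, 3 and 1 counts in siCtrl Prolif, and NTRK2, with 11, 1 and 1, also passed the filter through the other groups. The same limit holds for their p-values against siCtrl Prolif. Between siCtrl Sen and siCtrl Prolif 5 of 7 members were called, when 58.1% of all tested genes were, with 2 members higher (29.8% of all genes) and 3 lower (28.3%). Between siNTRK2 Sen and siCtrl Sen 2 of 7 were called against 21.1% of all genes, 1 of them higher (11.1%) and 1 lower (10.0%), the latter being the siRNA target. Between siBDNF Sen and siCtrl Sen 3 of 7 were called against 20.5%, 0 higher (10.3%) and 3 lower (10.2%), the target among them. Between siNTRK2 Sen and siBDNF Sen 5 of 7 were called against 16.7%, 3 higher (8.84%) and 2 lower (7.86%), both targets included. The share of members called was thus near the background in senescence. The comparisons with siCtrl Sen share its 3 libraries, so their results are not independent.

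**Figure D2:**
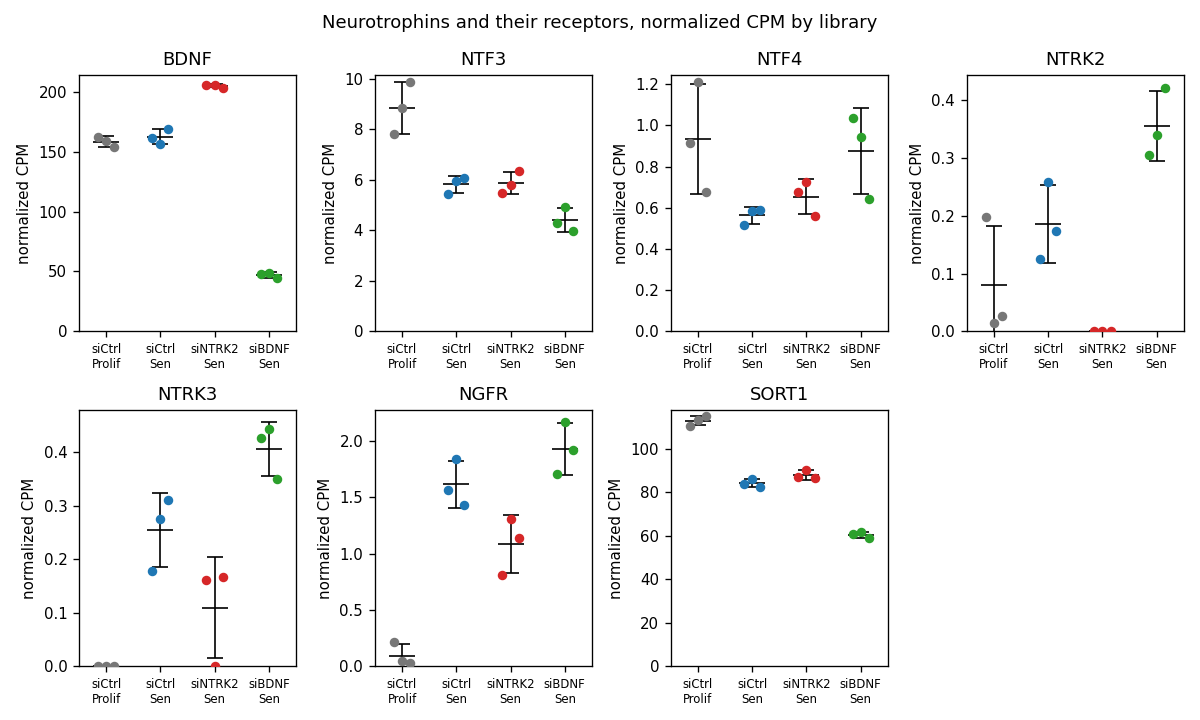
Normalized CPM of the 7 members (vertical axes from 0, a scale of its own for each gene) in the 4 groups, with 1 point per library and bars for mean ± SD. NGFR and NTRK3 are near or at 0 in siCtrl Prolif and higher in siCtrl Sen, NTF3 and SORT1 step down from siCtrl Prolif to siCtrl Sen to siBDNF Sen, and NTRK2 is at 0 in all siNTRK2 Sen libraries.

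Among the ligands, BDNF (ENSG00000176697, chr11:27676440-27743605, minus strand, GRCh37), the main ligand of TrkB, was the most abundant. It was at 163, 158 and 153 CPM in siCtrl Prolif and at 161, 157 and 169 in siCtrl Sen. The 2 groups overlapped, and the log2 fold change of 0.04 was within the replicate spread (SE 0.046, 95% interval -0.06 to 0.13, edgeR adjusted p = 0.508). Relative to ACTB, the BDNF change was 0.58 (edgeR adjusted p = 2.14e-07), when the median gene stood at 0.57 on that scale. BDNF was at 205, 206 and 203 CPM in siNTRK2 Sen, above every siCtrl Sen library, a log2 fold change of 0.33 (SE 0.046, edgeR adjusted p = 8.35e-06). In siBDNF Sen it was at 48.1, 48.9 and 44.3 CPM, below all other libraries, a log2 fold change of -1.79 (SE 0.0487, edgeR adjusted p = 1.72e-18), the check on the siRNA target.

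BDNF-AS (ENSG00000245573), the antisense gene that shares exons with BDNF, was at 35.2, 38.6 and 38.9 CPM in siCtrl Prolif, 45.1, 42.9 and 47.9 in siCtrl Sen, 56.8, 53.3 and 56.4 in siNTRK2 Sen and 12.3, 13.9 and 11.1 in siBDNF Sen. The 4 groups did not overlap. It fell with BDNF in siBDNF Sen (log2 fold change -1.87, SE 0.0724, edgeR adjusted p = 3.85e-15) and rose with it in siNTRK2 Sen (0.29, SE 0.0657, edgeR adjusted p = 0.00204). Unlike BDNF, it was also called higher in siCtrl Sen than in siCtrl Prolif (0.27, SE 0.0667, edgeR adjusted p = 0.00116). The libraries held 23.8 ± 1.91 BDNF-AS counts per 100 BDNF counts in siCtrl Prolif and 27.9 ± 0.480 in siCtrl Sen (SD, n = 3), without overlap, for which the two-sided exact permutation test gave its smallest possible p of 0.1 (n = 3 per group). The ratio was 27.1 ± 1.02 in siNTRK2 Sen and 26.3 ± 1.80 in siBDNF Sen, each with an exact permutation p of 0.4 against siCtrl Sen (n = 3 per group). The shared exon bases shown above could carry reads from one gene to the other, and their part in this parallel was not tested.

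**Figure D3:**
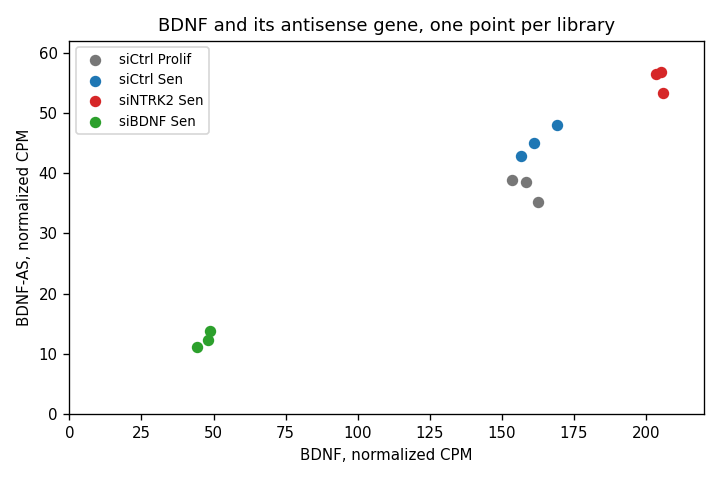
Normalized CPM of BDNF-AS (vertical axis) against that of BDNF (horizontal axis), 1 point per library, both axes from 0. The siBDNF Sen libraries lie low on both axes, the siNTRK2 Sen libraries high on both, and the siCtrl Sen libraries lie above the siCtrl Prolif libraries at like BDNF levels.

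NTF3 (ENSG00000185652, chr12:5541274-5630702, plus strand), which encodes the TrkC ligand NT-3, was lower in senescent cells. Its libraries were at 7.81, 8.83 and 9.85 CPM in siCtrl Prolif and at 5.43, 5.94 and 6.08 in siCtrl Sen. The groups did not overlap, and the log2 fold change was -0.60 (SE 0.110, edgeR adjusted p = 5.21e-05). Relative to ACTB, that value was -0.05 and no longer called (edgeR adjusted p = 0.737). In siNTRK2 Sen it was at 5.46, 5.79 and 6.35 CPM, among the siCtrl Sen values (log2 fold change 0.01, 95% interval -0.22 to 0.24, edgeR adjusted p = 0.963). In siBDNF Sen it was at 4.27, 4.92 and 3.99 CPM, below every siCtrl Sen library, with a log2 fold change of -0.40 (SE 0.115, edgeR adjusted p = 0.0138). That call was lost without siCtrl Sen library 3 (edgeR adjusted p = 0.0634), without siBDNF Sen library 3 (edgeR adjusted p = 0.0962) and relative to ACTB (-0.14, edgeR adjusted p = 0.441). The direct difference between siNTRK2 Sen and siBDNF Sen was 0.41 (edgeR adjusted p = 0.0144), a call lost without siNTRK2 Sen library 3 (edgeR adjusted p = 0.0667), without siBDNF Sen library 3 (edgeR adjusted p = 0.109) and relative to ACTB (0.25, edgeR adjusted p = 0.188).

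Since both mRNAs were measured in the same libraries, their ratio needs no scaling. There were 5.60 ± 0.809 NTF3 counts per 100 BDNF counts in siCtrl Prolif, 3.59 ± 0.210 in siCtrl Sen, 2.87 ± 0.235 in siNTRK2 Sen and 9.32 ± 0.655 in siBDNF Sen (SD, n = 3). The groups did not overlap, and siCtrl Prolif and siNTRK2 Sen each had a two-sided exact permutation p of 0.1 against siCtrl Sen, the smallest that 3 libraries against 3 can give. In siBDNF Sen the silenced gene is the denominator, so the higher ratio there was set by the siRNA target and is no test of NTF3, whose own CPM was lower.

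NTF4 (ENSG00000225950, chr19:49564323-49568333, minus strand), the other TrkB ligand, was measured with few counts. The libraries held 51, 85 and 25 counts in siCtrl Prolif, 29, 34 and 34 in siCtrl Sen, 42, 36 and 30 in siNTRK2 Sen and 34, 64 and 44 in siBDNF Sen. In CPM it was lower in siCtrl Sen (0.517 to 0.589) than in siCtrl Prolif (0.677 to 1.21), with no overlap and a log2 fold change of -0.75 (SE 0.297, edgeR adjusted p = 0.0325). That call did not survive the loss of siCtrl Prolif library 2 (edgeR adjusted p = 0.204) or of siCtrl Sen library 1, 2 or 3 (edgeR adjusted p = 0.0841, 0.0509 and 0.0517), nor scaling to ACTB (-0.22, edgeR adjusted p = 0.540). After silencing, the log2 fold changes were 0.21 in siNTRK2 Sen (95% interval -0.42 to 0.84) and 0.61 in siBDNF Sen (95% interval -0.01 to 1.23), neither called. Relative to ACTB the latter was 0.88 and called (edgeR adjusted p = 0.0300). Exons of ENSG00000268287 on the opposite strand share 597 bases with NTF4 but held only 11 counts over the 12 libraries.

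The Trk receptors were at the edge of detection in every group. NTRK2 (ENSG00000148053, chr9:87283290-87710666, plus strand) had 11, 1 and 1 counts in siCtrl Prolif, 7, 15 and 10 in siCtrl Sen, 0 in each siNTRK2 Sen library and 10, 23 and 29 in siBDNF Sen. Silencing thus left the receptor mRNA at least 3.37-fold lower than in siCtrl Sen and at least 6.47-fold lower than in siBDNF Sen, with the floor of 3 counts per library in place of 0 (edgeR adjusted p = 0.00202 and 2.73e-04). Both p-values carry the limit of the count filter given above. Senescence was a less clear case. The siCtrl Prolif libraries ranged from 0.0143 to 0.197 CPM and the siCtrl Sen libraries from 0.125 to 0.258, so the groups overlapped through siCtrl Prolif library 1 (log2 fold change 1.18, SE 0.752, edgeR adjusted p = 0.188). Without that library the value was 3.14 and was called (edgeR adjusted p = 0.0116). The siCtrl Prolif libraries then left held 1 count each, under the floor of 3. The size of 3.14 thus depends on how such counts are handled, and its p-value carries the same limit of the count filter. In siBDNF Sen the 3 libraries, at 0.305, 0.340 and 0.422 CPM, lay above all siCtrl Sen libraries, but the log2 fold change of 0.94 had a 95% interval of -0.39 to 2.28 (edgeR adjusted p = 0.356).

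NTRK3 (ENSG00000140538, chr15:88402982-88800022, minus strand), the NT-3 receptor, had 0 counts in all siCtrl Prolif libraries. It had 10, 16 and 18 counts in siCtrl Sen, 10, 0 and 9 in siNTRK2 Sen and 14, 30 and 24 in siBDNF Sen. It was thus detected only in senescent groups and was at least 4.31-fold higher in siCtrl Sen than in siCtrl Prolif (edgeR adjusted p = 1.23e-04), the floor being 3 counts per library. That p-value carries the limit of the count filter given above. The siNTRK2 Sen libraries, at 0.162, 0 and 0.168 CPM, were all below the siCtrl Sen libraries at 0.178, 0.276 and 0.312, and the siBDNF Sen libraries, at 0.427, 0.443 and 0.349, were all above them. Neither difference was called (log2 fold change -1.16, SE 0.672, edgeR adjusted p = 0.245 and 0.66, SE 0.599, edgeR adjusted p = 0.516). The direct difference between siNTRK2 Sen and siBDNF Sen was -1.83 (SE 0.657, edgeR adjusted p = 0.0604). Relative to ACTB it was -2.01 and called (edgeR adjusted p = 0.0356).

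NGFR (ENSG00000064300, chr17:47572655-47592370, plus strand), the p75 receptor that takes all neurotrophins, rose most in senescence among the members with counts in both groups. It had 12, 3 and 1 counts in siCtrl Prolif and 88, 107 and 83 in siCtrl Sen. On the CPM scale this was 0.0950 ± 0.105 against 1.62 ± 0.207 (SD, n = 3), with a log2 fold change of 4.01 (SE 0.387, edgeR adjusted p = 2.42e-09). NGFR passed the count filter through the senescent groups, so that p-value carries the limit of the filter given above. The size of the change rested on the siCtrl Prolif libraries: without library 1 the log2 fold change was 5.35, and without library 2 it was 3.52, both called. In siNTRK2 Sen, NGFR was at 0.808, 1.31 and 1.14 CPM, below every siCtrl Sen library, whose values were 1.57, 1.84 and 1.44. The difference did not pass the adjustment (log2 fold change -0.58, SE 0.269, edgeR adjusted p = 0.132). In siBDNF Sen it was at 1.71, 2.17 and 1.92 CPM, overlapping siCtrl Sen (0.27, 95% interval -0.26 to 0.80, edgeR adjusted p = 0.543). The direct difference between siNTRK2 Sen and siBDNF Sen was -0.85 (SE 0.268, edgeR adjusted p = 0.0287), a call lost without siNTRK2 Sen library 1 or 3 or siBDNF Sen library 2 or 3 (edgeR adjusted p = 0.124, 0.0513, 0.131 and 0.0842). NGFR-AS1, on the opposite strand with 202 shared exon bases, had 0 counts in siCtrl Prolif and 6, 8 and 6 in siCtrl Sen, too few to pass the filter.

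SORT1 (ENSG00000134243, chr1:109852190-109940540, minus strand), which encodes sortilin, was at 111, 113 and 115 CPM in siCtrl Prolif, 83.8, 86.1 and 82.5 in siCtrl Sen, 86.9, 90.5 and 86.4 in siNTRK2 Sen and 60.9, 61.8 and 59.0 in siBDNF Sen. The 4 groups did not overlap. It was lower in siCtrl Sen than in siCtrl Prolif (log2 fold change -0.43, SE 0.0449, edgeR adjusted p = 1.14e-08), but relative to ACTB the sign turned, to 0.12 (edgeR adjusted p = 0.137). It was also lower in siBDNF Sen than in siCtrl Sen (-0.47, SE 0.0456, edgeR adjusted p = 4.22e-08), and relative to ACTB by a smaller amount (-0.21, edgeR adjusted p = 0.0231). After NTRK2 silencing the log2 fold change of 0.06 was not called (95% interval -0.03 to 0.16, edgeR adjusted p = 0.354), and the direct difference between siNTRK2 Sen and siBDNF Sen was 0.54 (SE 0.0457, edgeR adjusted p = 3.93e-09).

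**Figure D4:**
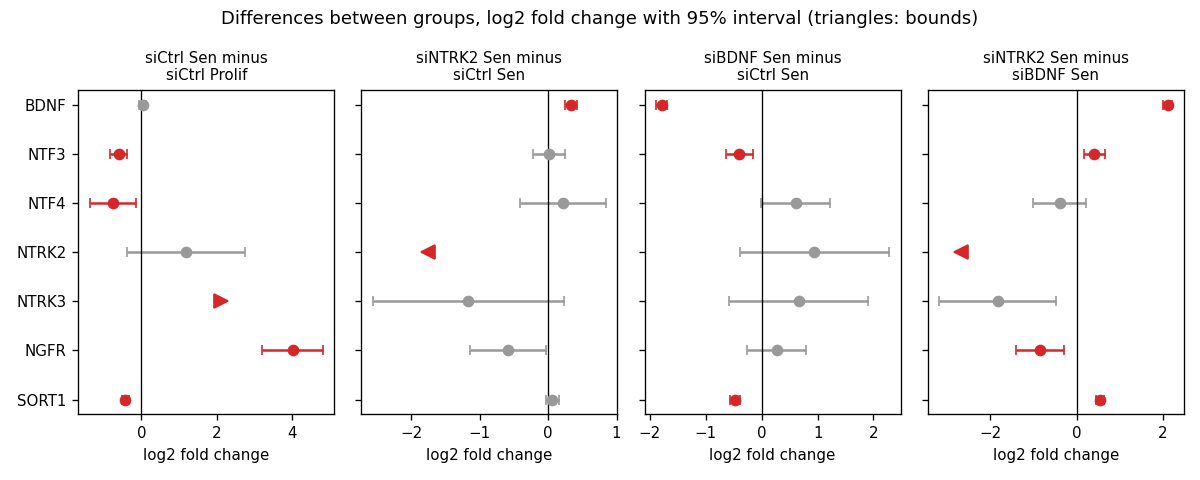
Log2 fold change (horizontal axes, a scale of its own for each comparison) of the 7 members in 4 comparisons, with 95% intervals, red where called and gray where not. Triangles mark the lower bound of the size where 1 group had 0 counts. NGFR lies farthest right in siCtrl Sen minus siCtrl Prolif, and BDNF lies farthest left in siBDNF Sen minus siCtrl Sen.

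The genes whose levels ran most like those of a member were found by Pearson's r of log2 CPM over the 12 libraries, among 15567 genes with a mean of at least 1 CPM, as a description in which 4 group means carry most of the variation. For SORT1 they were PALLD (r = 0.995), MASP1 and CCBE1 (0.992 each), LYRM4 (0.986) and FBLN5 (0.984). For NGFR they were HIPK3 (0.985), the mitochondrial MT-TR (0.984), ENSG00000261760 (0.984), TRIM23 (0.983) and ENSG00000251257 (0.981). For NTF3 they were EML1 (0.977), PIP5K1A (0.973), CTNNBL1 and TULP3 (0.972 each) and BRF2 (0.964). BDNF-AS came first for BDNF (0.991), then CYGB (0.958), BZW1-AS1 (0.949), UBE3C (0.948) and ADD1 (0.947). Over the 9 libraries in which BDNF was not silenced the list was another one, namely ANKRD42-DT (0.972), LRRC17 (0.968), XYLT1 (0.967), THBS3 (0.966) and TCTN1 (0.965).

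Genes that process proneurotrophins were mostly higher in senescent cells. Of 13 in the list, 11 passed the count filter. Of these, 10 were higher (29.8% of all tested genes) and 1 lower (28.3%) in siCtrl Sen than in siCtrl Prolif. The median log2 fold change was 0.50 against 0.02 over all tested genes. MMP9, at 0 counts in siCtrl Prolif, and MMP7, at 2 counts over its libraries, passed the filter through the other groups. Their calls are therefore no separate support for a difference. With at least 10 counts in every library, 9 were tested, 8 higher and 1 lower, when 10616 of 17028 genes were called. MMP3 (stromelysin 1, a protease that cuts proneurotrophins) had a log2 fold change of 2.56 (SE 0.0695), PLAT (tissue plasminogen activator, which makes plasmin) 1.64 (SE 0.0461) and CPE (carboxypeptidase E, which sorts proBDNF to the regulated pathway) 0.93 (SE 0.0950). FURIN, which cuts proneurotrophins in the secretory pathway, had 0.30 (SE 0.0490, edgeR adjusted p = 8.77e-06), and PCSK7, another convertase, was the 1 gene called lower, at -0.23 (SE 0.0536). Relative to ACTB, all 11 were higher and 0 lower.

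The same list was split after silencing. In siNTRK2 Sen 5 were higher (11.1% of all genes) and 2 lower (10.0%) than in siCtrl Sen, with a median of 0.13 against 0.00 over all genes. CPE was higher (0.69, SE 0.0878), and PLAT (-0.57, SE 0.0449) and MMP3 (-0.46, SE 0.0596) were lower. In siBDNF Sen 5 were higher (10.3% of all genes) and 2 lower (10.2%), with a median of 0.25. MMP3 (0.87, SE 0.0579), CPE (0.40, SE 0.0887) and FURIN (0.37, SE 0.0487) were higher, and PCSK7 (-0.39, SE 0.0538) and PLAT (-0.28, SE 0.0447) were lower. Relative to ACTB, 7 were higher and 1 lower in siBDNF Sen. The direct difference in MMP3 between siNTRK2 Sen and siBDNF Sen was -1.33 (SE 0.0592, edgeR adjusted p = 1.81e-14). Thus PLAT was lower with either siRNA, while MMP3 was lower with one and higher with the other.

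Genes that Trk signaling is known to induce, the immediate early genes, the SPRY and DUSP feedback inhibitors and the secreted peptide gene VGF, were for the most part higher in senescent cells. All 12 of the list were tested. In siCtrl Sen 9 were higher (29.8% of all genes) and 2 lower (28.3%) than in siCtrl Prolif, with a median of 0.99 against 0.02 over all genes. ARC, at 1 to 5 counts per siCtrl Prolif library, passed the filter through the other groups. With at least 10 counts in every library, 10 were tested, 7 higher and 2 lower, when 10616 of 17028 genes were called. EGR2, an immediate early transcription factor, had a log2 fold change of 2.32 (SE 0.306), VGF 2.01 (SE 0.180) and DUSP6, a phosphatase of ERK, 1.56 (SE 0.0501). The 2 lower genes were EGR1 (-0.56, SE 0.0663) and HOMER1 (-0.69, SE 0.139), and relative to ACTB 9 were higher and 0 lower. Many of these genes answer to growth factors other than neurotrophins, so the list is not specific to Trk receptors.

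In siNTRK2 Sen 0 of the 12 were higher (11.1% of all genes) and 2 lower (10.0%) than in siCtrl Sen, with a median of -0.29. The 2 were JUNB (-0.36, SE 0.0808) and EGR1 (-0.26, SE 0.0676). Without siCtrl Sen library 2 or siNTRK2 Sen library 2 the count of lower genes was 1. The senescence and proliferation genes given above moved in siNTRK2 Sen as well, and their part in this list was not tested. In siBDNF Sen 6 were higher (10.3% of all genes) and 0 lower (10.2%), with a median of 0.23. They were led by VGF (0.96, SE 0.145), EGR2 (0.68, SE 0.241) and SPRY4 (0.51, SE 0.0555). The count of higher genes was 3 without siBDNF Sen library 3. The direct comparison called 8 of 12 lower (7.86% of all genes) in siNTRK2 Sen than in siBDNF Sen and 0 higher (8.84%), with a median of -0.50 against 0.00. EGR2 (-1.04, SE 0.248), VGF (-0.79, SE 0.144) and JUNB (-0.66, SE 0.0807) had the largest differences of those with a mean of at least 1 CPM.

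**Figure D5:**
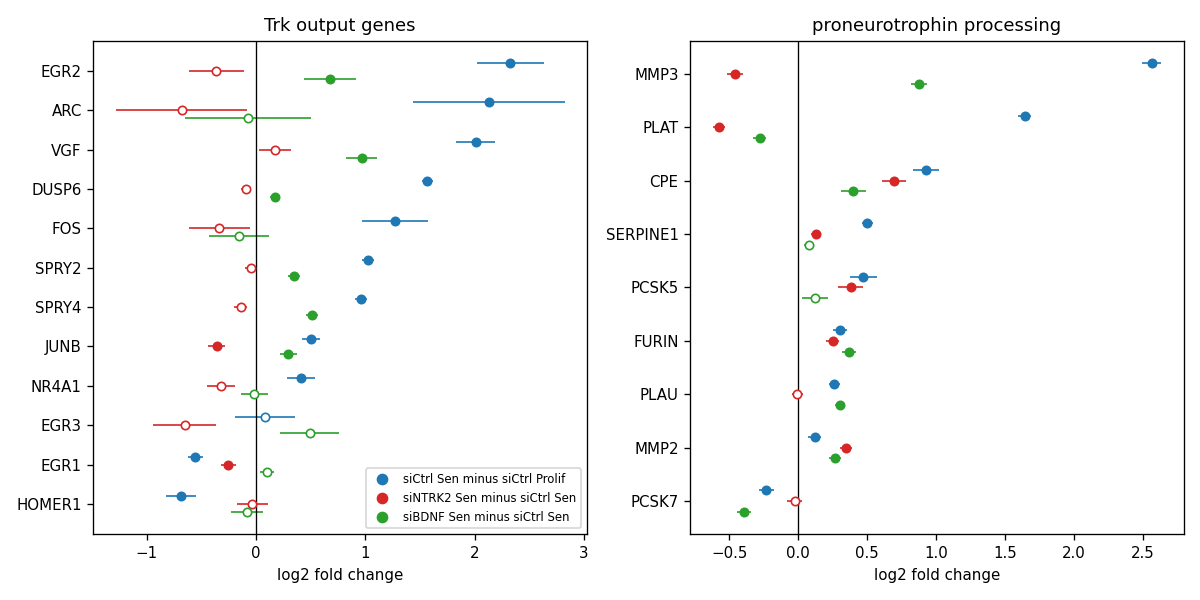
Log2 fold changes with 1 SE (horizontal axes) of the genes induced by Trk signaling (left) and of those that process proneurotrophins (right), in 3 comparisons by color, filled where called. Genes with 3 or fewer counts in all of a group are not drawn. Most blue points (siCtrl Sen minus siCtrl Prolif) lie right of 0, and MMP3 lies left of 0 in siNTRK2 Sen and right of 0 in siBDNF Sen.

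The adaptors and effectors of Trk receptors moved less. Of 19 tested, 9 were higher (29.8% of all genes) and 4 lower (28.3%) in siCtrl Sen than in siCtrl Prolif (median 0.12). SHC2 was at 1.39 (SE 0.261), GAB2 at 0.74 (SE 0.0728) and SHC1 at 0.55 (SE 0.0420), all docking adaptors. Without siCtrl Prolif library 1 the counts were 8 and 2, and relative to ACTB 16 and 0. After silencing, 1 was higher (11.1% of all genes) and 2 lower (10.0%) in siNTRK2 Sen, PLCG1 (0.30, SE 0.0534), SHC1 (-0.24, SE 0.0419) and CRKL (-0.20, SE 0.0478). Relative to ACTB 1 was higher and 0 lower. In siBDNF Sen 1 was higher (10.3% of all genes) and 3 lower (10.2%), SHC3 (0.27, SE 0.0699), SHC1 (-0.26, SE 0.0419) and MAP2K5 (-0.26, SE 0.0869) among them. There, leaving out single libraries gave 1 to 3 higher and 1 to 2 lower, and scaling to ACTB 10 higher and 0 lower.

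The genes around p75 showed no common direction in senescence. Of 14 adaptors, adaptor partners and shedding enzymes, 5 were higher (29.8% of all genes) and 6 lower (28.3%) in siCtrl Sen than in siCtrl Prolif (median -0.06). Relative to ACTB the counts were 13 and 0. NCSTN, a γ-secretase subunit, had 0.54 (SE 0.0406), ADAM10, a sheddase, -0.52 (SE 0.0461) and TRADD, a death domain adaptor, 0.45 (SE 0.0705). In siNTRK2 Sen 2 were higher and 4 lower (1 to 3 and 2 to 6 when single libraries were left out, and 2 and 2 relative to ACTB). ARHGDIA (-0.64, SE 0.0543) and PSENEN (-0.32, SE 0.0568) were among the lower genes and PRDM4 (0.20, SE 0.0496) among the higher. Over all genes 11.1% were higher and 10.0% lower there. In siBDNF Sen 2 were higher (1 to 3 when single libraries were left out) and 4 lower, when 10.3% of all genes were higher and 10.2% lower. Among them were MAGED1 (-0.30, SE 0.0414) and BEX3 (-0.29, SE 0.0480), both p75 binding proteins, and the sheddase ADAM17 (0.28, SE 0.0677). Relative to ACTB this balance turned, with 8 higher and 0 lower. Of 7 tested relatives of sortilin and co-receptors of p75, 3 were higher (29.8% of all genes) and 2 lower (28.3%) in siCtrl Sen. The latter count was 1 without siCtrl Prolif library 2 or siCtrl Sen library 3, and relative to ACTB 5 were higher and 1 lower. The count of higher genes was 2 to 3 when single libraries were left out. SORCS1, at 0 counts in siCtrl Prolif, and LINGO1, at 3 to 7 per library there, passed the filter through the other groups. With at least 10 counts in every library, 5 were tested, 1 higher and 1 lower, when 10616 of 17028 genes were called. TNFRSF19, a relative of p75, had -1.33 (SE 0.0522), and KIDINS220, a scaffold of Trk and p75, -0.15 (SE 0.0523). SORCS2, a sortilin relative that acts with p75, had 0.69 (SE 0.158) in siNTRK2 Sen.

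Among known regulators of BDNF transcription, 11 of which were tested, 3 were higher (29.8% of all genes) and 4 lower (28.3%) in siCtrl Sen than in siCtrl Prolif. BDNF itself was not called. NFKB1 had -0.92 (SE 0.0568), CREB1, the cyclic AMP responsive factor, -0.66 (SE 0.0701) and NFATC4 -0.52 (SE 0.0651). Relative to ACTB the counts were 8 and 1. In siNTRK2 Sen the 2 called were USF1, which binds E-boxes, at 0.27 (SE 0.0679) and RELA at -0.32 (SE 0.0497). Over all genes 11.1% were higher and 10.0% lower there. The mean of USF1 was 19.2 CPM in siCtrl Sen, 23.2 in siNTRK2 Sen and 22.4 in siBDNF Sen. Its part in the level of BDNF was not tested. In siBDNF Sen 3 were higher (10.3% of all genes) and 1 lower (10.2%). REST, a repressor of neuronal genes, was at 0.29 (SE 0.0652), CREB1 at 0.29 (SE 0.0708) and RELA at -0.23 (SE 0.0497). Relative to ACTB 10 were higher and 0 lower.

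Neurotrophic factors of other families were compared with the members as well. Of 9 tested, 4 were higher (29.8% of all genes) and 1 lower (28.3%) in siCtrl Sen than in siCtrl Prolif. GFRA2, at 0 counts in siCtrl Prolif, and CNTFR, at 0 to 5 per library there, passed the filter through the other groups. A call of either is no separate support for a difference. With at least 10 counts in every library, 5 were tested, 2 higher and 1 lower, when 10616 of 17028 genes were called. GDNF, a ligand of the RET receptor, had 1.67 (SE 0.126), and its co-receptor GFRA1 -1.54 (SE 0.0705). CDNF had 0.49 (SE 0.191). In siBDNF Sen GDNF alone was called (0.45, SE 0.109, edgeR adjusted p = 0.0042), and in siNTRK2 Sen GFRA1 alone (0.34, SE 0.0719, edgeR adjusted p = 0.00128). Of all tested genes 20.5% and 21.1% were called in these comparisons. In the direct comparison of siNTRK2 Sen with siBDNF Sen, GFRA1 was higher (0.44, SE 0.0727), while the call of GDNF (-0.32, SE 0.109, edgeR adjusted p = 0.0468) was lost when any 1 of the 6 libraries was left out and with the replicate block.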

How the data were processed

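Per the labels and the study's methods, stranded poly(A) libraries were sequenced with paired ends, demultiplexed with bcl2fastq 2.20.0.422, trimmed with Cutadapt, aligned to hg19 (GRCh37) with STAR 2.4.0j and counted per gene with featureCounts 1.6.4. The authors deposited unnormalized counts, 1 table per library. The strand setting and the rule for overlapping genes are not given in the sources used here. The members, lists and naming rules were chosen with earlier results of these data known.

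Of 57773 identifiers, 55538 had a symbol. The counts were fitted in R 4.3.3 with edgeR 4.0.16 (TMM, filterByExpr over 4 groups, 1 term per group, all 12 libraries, quasi-likelihood test), and adjusted over 21518 genes. The study's methods name DESeq2, run here as an alternative (1.42.0). Each SE was obtained as the estimate over the root of its F statistic. RPKM used GENCODE v44 exon lengths lifted to GRCh37. Groups at 0 counts were set to 3 counts per library for bounds. Named genes were the members, genes overlapping them, up to 3 called genes per list and comparison with a mean of at least 1 CPM, and 5 genes most correlated with each member of that level. FURIN, the markers TEK, VWF, KDR, KRT8, KRT18, IL6, CCL2, MKI67 and TOP2A, and PCSK7, PLAT, HOMER1 and EGR1 where not among those 3, were named after their values were seen. No 2 libraries of a group agreed within sampling noise. The fits were tested on simulated counts. Exact permutation tests used SciPy 1.17.1. Other alternatives were DESeq2 size factors, library totals, ACTB scaling, other count filters, fits of only 2 groups, a replicate block, a fold cutoff and leaving out each library.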

Additional observations from a re-analysis of the deposited data

Results flagged for a closer look

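For 5 of the 7 members, siNTRK2 Sen and siBDNF Sen differed in the direct test of one against the other (edgeR's quasi-likelihood test, adjusted over all genes), which is the test of whether the 2 silencing effects differ, since both are measured from the same siCtrl Sen libraries. In the same test 16.7% of all 21518 tested genes were called. The log2 difference, siNTRK2 Sen minus siBDNF Sen, was 2.12 for BDNF, 0.41 for NTF3 and 0.54 for SORT1, each with no overlap between the groups. The call of NTF3 was lost without siNTRK2 Sen library 3 (edgeR adjusted p = 0.0667), without siBDNF Sen library 3 (edgeR adjusted p = 0.109) and relative to ACTB (0.25, edgeR adjusted p = 0.188). It was -0.85 for NGFR, also with no overlap but a call lost without any 1 of 4 libraries. For NTRK2 the fitted value of -7.33 depends on how 0 counts are handled, and the bound of at least 6.47-fold stands in its place. BDNF and NTRK2 are the siRNA targets, so a difference in them was built into the design.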

How the results depend on the processing

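Of 372 recomputed member results, 348 kept direction and side of the threshold. DESeq2 gave NTRK2 no adjusted p, so 1 member was called between siNTRK2 Sen and siCtrl Sen, as in the fit of only those 2 groups. At least 10 counts in every library left 3, 1 and 3 called for siCtrl Sen against siCtrl Prolif, siNTRK2 Sen against siCtrl Sen and siNTRK2 Sen against siBDNF Sen, since fewer members were tested. Of the 17028 genes tested there, 10616, 4705 and 3622 were called in those comparisons. Requiring also an absolute log2 fold change over 1 gave 2, 1 and 2 for those comparisons and 1 for siBDNF Sen against siCtrl Sen. Scaling to ACTB called 3 members in senescence, NTRK3 and NGFR as before and BDNF in addition, while NTF3, NTF4 and SORT1 lost their calls. SORT1 turned to 0.12. Over all genes this scaling called 15000 in place of 12501 in senescence and 8367 in place of 4412 in siBDNF Sen. The fold cutoff called 3604, 206 and 250 of all genes in those comparisons and 131 in siBDNF Sen. Leaving out single libraries gave 4 to 6, 2, 2 to 3 and 3 to 5 members called. The 3 were without siNTRK2 Sen library 3 or siBDNF Sen library 3, where NGFR and NTF3 lost their calls. Over all genes these fits called 11565 to 12381, 2943 to 4804, 2914 to 4651 and 2286 to 3249, of 22142 to 22318 tested. Leaving out libraries moved BDNF in senescence between -0.003609 and 0.04813 and NTF3 in siNTRK2 Sen between -0.05208 and 0.06011. Replicate numbers did not pair the libraries (mean correlation of deviations 0.00184, 0 of 18 pairs over 0.1). The replicate block gave 5, 2, 3 and 5 called members and changed no member's call. The cause of these shifts was not tested except where named. NTRK2, NTRK3 and NTF4 had at most 85 counts in a library, and how far depth or the spread between libraries limits their calls was not tested.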
